A study of Mus musculus with 24 samples.

Results

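Microglia are the resident macrophages of the brain, and their relatives in other organs include the Kupffer cells of the liver and the macrophages of heart and skeletal muscle. These cells depend on signals through the receptor CSF1R. The TREM2 receptor and its adaptor TYROBP carry signals that drive phagocytosis and lipid handling, and in injured or ageing brain microglia raise lysosomal and lipid genes while they lower genes of the resting state. The genes described here are 9 markers of these cells, *Csf1r*, *Trem2*, *Tyrobp*, *P2ry12*, *Itgam*, *Tmem119*, *Aif1*, *Cd68* and *Ctss*, of 21368 genes named on the array. The genes were chosen by name and found through the RefSeq accession of each probe, which gave 13 probes, with 1 probe for 7 of the genes and 3 probes each for *Csf1r* and *Itgam*.

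The 24 one-colour arrays measured whole-tissue RNA from 6 male mice, each of which gave liver, brain, heart and skeletal muscle. The WT mice, called WT1 to WT3, were littermate controls, and the Rap1 KI/KI mice, called KI1 to KI3, carried on both alleles the I312R point mutation of RAP1, made by CRISPR/Cas9 and backcrossed to C57BL6. RAP1 is a shelterin protein encoded by *Terf2ip*, and the mutation removes its binding to TRF2 and telomeres in every cell, so that the model is not restricted to macrophages. The age was 5 months for WT1 and KI1 and 2 months for the remaining 4 mice. A level is the log2 processed intensity minus the log2 of the array's 75th percentile, and a difference of 1 is 2-fold. In bulk tissue, fewer cells of a type and less RNA per cell cannot be told apart.

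The mutation leaves the *Terf2ip* transcript in place, so its level does not check the genotype labels. It lay between 1.20 and 1.83 in the brains of both genotypes. In heart it was 1.20 to 1.56 in WT mice and 0.69 to 1.22 in KI/KI mice. In muscle it was 1.36 to 1.51 in WT mice and 0.88 to 1.44 in KI/KI mice. In liver the KI/KI range, 1.61 to 1.90, lay inside the WT range, 1.17 to 2.07. The tissue labels were borne out by tissue genes, but some samples held transcripts of another tissue. The muscle of KI3 held neuron transcripts, with *Rbfox3* at 2.99 against -2.08 or less in the other 5 muscles. All 3 neuron genes tested in muscle were highest there, beside 16.6% of muscle probes. The astrocyte gene *Gfap* was at 1.94 against -2.60 or less. Of 4 astrocyte and oligodendrocyte genes tested in muscle, however, 1 was highest there. The summed level of that list, 6.67, lay within the 5.76 to 6.69 of the other muscles. The brain of WT1 held hepatocyte transcripts, with *Alb* at 0.57 against -3.86 or less in the other brains. Fat cell transcripts varied in heart and muscle. In heart the genotypes did not overlap in the summed adipocyte level. It reached at most 4.94 in WT mice and at least 5.17 in KI/KI mice (lowest 0.21, highest 8.58). Of heart probes, 14.7% were without overlap too. In muscle the summed adipocyte level lay between 6.52 and 9.87. Results that rest on KI3 are given with and without this mouse.

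All 13 probes were measured well above background in 311 of 312 array values, none was saturated, and all 9 genes passed the filter on low values in every tissue. Where a gene had 3 probes, the probe with the highest mean level stands for it, and levels of different probes are not compared with each other.

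The promoters of 6 of the 9 genes were available from RefSeq (GRCm38.p6). The stretches below show 120 bases of 3 of them, ending just before the transcription start, because the factor PU.1, on which macrophages depend, binds sites with the core GAGGAA. Capitals mark this motif on either strand (TTCCTC when read on the other strand), and all are written 5′ to 3′ on the strand of the gene. *Trem2* lies on the plus strand at chr17:48346281-48346400, *Itgam* on the plus strand at chr7:128062520-128062639 and *P2ry12* on the minus strand at chr3:59262986-59263105.
Trem2: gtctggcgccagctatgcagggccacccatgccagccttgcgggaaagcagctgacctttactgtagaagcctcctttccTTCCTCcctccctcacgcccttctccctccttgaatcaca
Itgam: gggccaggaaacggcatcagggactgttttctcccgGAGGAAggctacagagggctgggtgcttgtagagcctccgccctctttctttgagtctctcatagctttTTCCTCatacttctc
P2ry12: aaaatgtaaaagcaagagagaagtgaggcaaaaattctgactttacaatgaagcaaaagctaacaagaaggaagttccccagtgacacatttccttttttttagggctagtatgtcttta
Within 250 bases before the start, 5 of the 6 promoters held the motif (*Aif1*, *Trem2*, *Itgam*, *Cd68* and *Ctss*), with the copies of *Cd68* and *Ctss* farther from the start than the stretches shown. The copy of *Aif1* lies inside the gene as RefSeq annotates it, since the gene record begins upstream of the start used for its promoter, and that stretch is not shown. The same motif was present in 23.1% of 27025 promoters searched over the same length. A match is a description of letters and not a site, and the stretch of *P2ry12* without a match says nothing of the factor.

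The brain of mouse KI3 stood apart from the other 5 brains in 5 of the 9 genes. *Trem2*, the lipid-sensing receptor, had levels of 2.65, 2.42 and 2.57 in the brains of WT1, WT2 and WT3, 2.46 and 2.56 in those of KI1 and KI2, and 4.53 in that of KI3. The 5 other brains thus lay within a narrow band, and KI3 was 3.99-fold above their mean. *Tyrobp*, the adaptor that pairs with TREM2, was at 2.68, 1.91 and 2.59 in WT1 to WT3, 2.23 and 2.57 in KI1 and KI2 and 4.13 in KI3.

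*Cd68*, which encodes a lysosomal membrane glycoprotein of phagocytes, had the largest step, with 1.59, 0.99 and 1.38 in the WT brains, 1.19 and 1.54 in KI1 and KI2 and 3.54 in KI3, which is 4.61-fold above the mean of the other brains. *Ctss*, a lysosomal cysteine protease, was at 4.03, 3.78 and 3.48 in the WT brains, 3.93 and 3.95 in KI1 and KI2 and 5.47 in KI3. *Aif1*, which encodes the calcium-binding protein IBA1 used to stain microglia, was at 2.34, 1.83 and 1.98 in the WT brains, 2.08 and 2.13 in KI1 and KI2 and 3.75 in KI3. For these genes the brains of KI1 and KI2 overlapped those of the WT mice, and the group of KI/KI brains was spread by 1 animal.

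The resting-state genes of microglia differed less in the same brain. *P2ry12*, a purinergic receptor that guides the processes of resting microglia, was at 1.27, 0.67 and 0.97 in the WT brains and 0.75, 1.22 and 1.40 in KI1 to KI3. *Tmem119*, a membrane protein used to tell microglia from other macrophages, was at 1.50, 0.77 and 1.21 in the WT brains and 0.78, 1.21 and 1.75 in KI1 to KI3. KI3 was the highest of the 6 brains for both genes, but close to the next highest brain. *Csf1r* was at 5.03, 4.76 and 4.73 in the WT brains and 4.76, 5.03 and 5.88 in KI1 to KI3, so that KI3 was 2.03-fold above the mean of the other brains.

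The probe that stands for *Itgam*, the integrin chain CD11b, was the exception, since KI3 had the lowest of the 6 brains, with 5.87, 5.85 and 5.81 in the WT brains and 5.96, 5.58 and 5.48 in KI1 to KI3. Over the 24 arrays this probe followed *Hexim2*, a regulator of transcription elongation, more closely than any other gene (Pearson r = 0.997). Its target was not checked here, so it may not measure *Itgam*, and the same holds for every value given for *Itgam* without another probe's name. Another *Itgam* probe, A_55_P1977929, was at -2.60, -2.37 and -2.61 in the WT brains, -2.48 and -2.87 in KI1 and KI2 and -1.46 in KI3, where it was the highest. Its remaining probe did not set KI3 apart. The *Csf1r* probe A_52_P602091 was highest in KI3 at 1.16 against 0.60 or less, while A_55_P2025073 had KI3 at -0.42, within the range of the other brains.

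By the measure of lying at least 1 above every other array of the tissue, 5 of the 9 genes marked the brain of KI3, beside 2.34% of the 37836 probes tested in brain. In muscle, 1 gene (*P2ry12*) marked KI3 beside 2.81% of 32382 probes, and in the other 22 samples the count was 0. This measure was chosen after the values were seen and describes single animals, so it has no test.

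**Figure D1:**
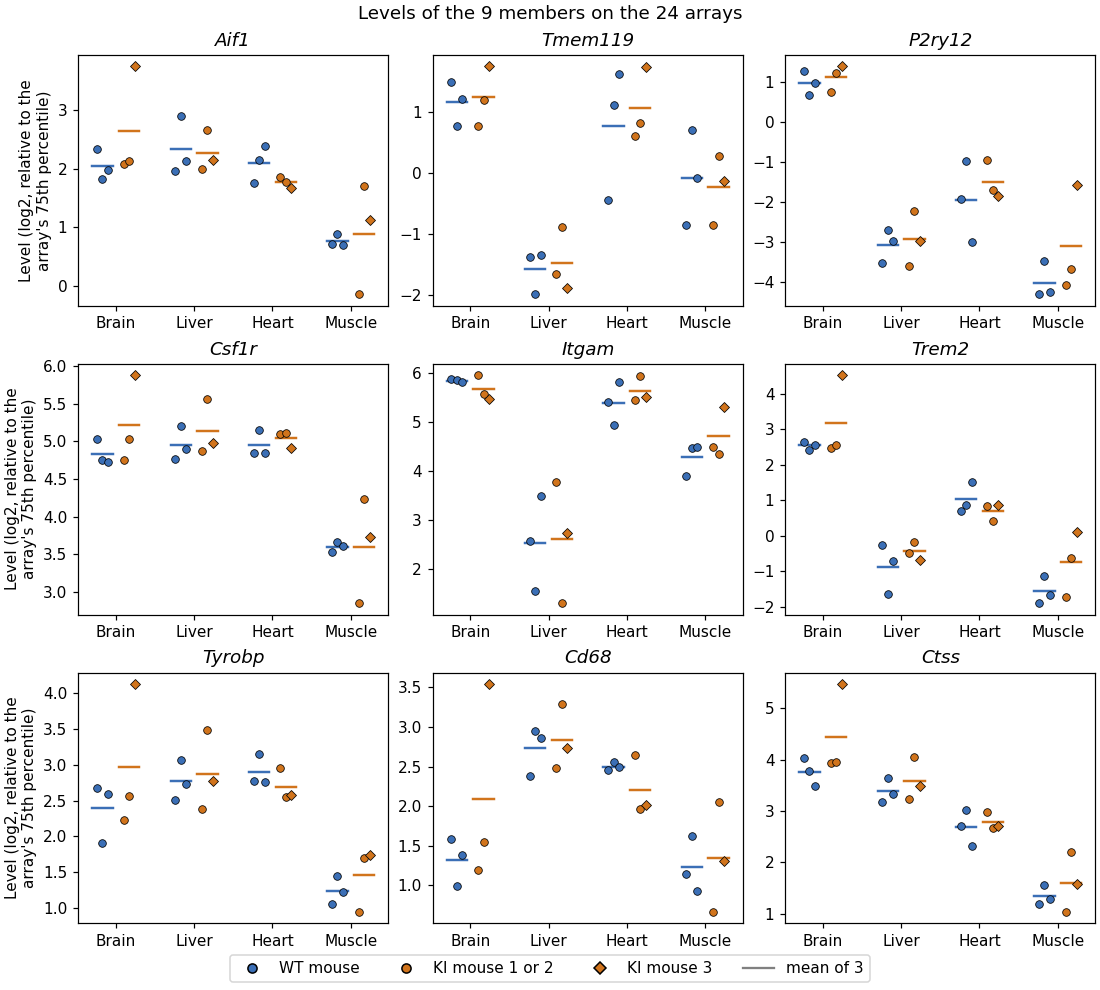
Levels of the 9 genes on the 24 arrays by tissue (x axis), as log2 relative to the array's 75th percentile (y axis, its range differs between panels). Blue circles are WT mice, orange circles KI1 and KI2, the orange diamond is KI3, and bars are means of 3. KI3 lies above all other brains for every gene but *Itgam*, while *P2ry12* and *Trem2* are highest in brain and *Cd68* is not.

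The other marker lists were chosen with earlier results of these data known, and outside the 5 brightest genes of each list the genes named were picked after their values were seen. Of 16 measured macrophage genes shared by microglia and other macrophages, all 16 were highest in the brain of KI3 and 15 were at least 1 above every other brain. Of all 37836 probes tested in brain, 16.5% were highest and 33.9% lowest in KI3, and the counts of highest and lowest genes in this brain are to be read beside these shares. Their median in KI3 was 1.72 above the mean of the other 5 brains, and their summed level was 6.25 against 4.07 to 4.82. Among the brightest, *C1qc*, a chain of complement C1q, was at 4.07 against 2.01 to 2.74, and *Mpeg1*, a pore-forming protein of macrophages, at 3.74 against 1.05 to 1.74. *Lyz2*, a lysozyme of myeloid cells, was at 0.35 against -4.07 to -2.78.

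Of 11 genes known to rise in activated microglia, 10 were highest in the brain of KI3 and 4 were at least 1 above all others. *Cst7*, a cystatin that inhibits lysosomal proteases, was at 1.08 in KI3 and between -5.54 and -4.76 in the other brains. *Gpnmb*, a lysosomal membrane glycoprotein, was at 1.36 against -4.40 to -3.46, and *Lgals3*, a galectin, at 2.63 against -2.26 to -1.02. *Itgax*, the integrin chain CD11c, was at -0.82 against -5.01 to -4.01. The bright genes *Apoe*, *Ctsb* and *Ctsd* lay 0.33, 0.31 and 1.06 above the mean of the other brains.

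*Spp1*, which encodes osteopontin, had another pattern. Its level was -1.10, -0.57 and -1.69 in the WT brains and 1.18, 0.91 and 1.07 in KI1 to KI3, so that the genotypes did not overlap and KI3 was no higher than KI1. The difference was 2.17 (SE 0.31, n = 3 per genotype; limma adjusted p = 1, unadjusted p = 0.00033). Of all probes tested in brain, 7.73% did not overlap between genotypes and 2.62% had an unadjusted limma p under 0.05.

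Of 10 genes of homeostatic microglia, 7 were highest in the brain of KI3 and 1 was at least 1 above all others, with a median of 0.91 above the mean of the other brains. *Fcrls*, an Fc receptor-like gene, was at 1.86 against 0.02 to 0.83, and the chemokine receptor *Cx3cr1* at 4.13 against 2.90 to 3.17. *Selplg* and *Slc2a5* were 1.36 and 0.40 in KI3, inside the range of the other brains. This median was smaller than the 1.72 of the shared macrophage genes, and the difference between the lists was not tested.

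Genes that act with the members showed both patterns. *Csf1*, a ligand of CSF1R, was at 2.37 in the brain of KI3 against 0.86 to 1.35, while *Il34*, its other ligand, which neurons make, was at 2.61 against 2.38 to 2.95. The signalling genes *Syk* and *Plcg2*, downstream of TYROBP and TREM2, were at -0.45 against -2.06 to -1.71 and at 1.93 against 0.60 to 1.05. *Inpp5d*, a phosphatase that restrains this signal, was at 1.39 against 0.04 to 0.64.

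Markers of other cells moved in the same brain. The astrocyte gene *Gfap* was at 5.41 in KI3 against 1.98 to 3.36, but of the 5 astrocyte and oligodendrocyte genes 2 were highest and 1 lowest there, with a median of 0.18 above the mean of the other brains. All 6 neuron genes were lowest in KI3, with a median of -0.51 relative to the mean of the other brains (-0.12 over all probes) and a summed level of 8.06 against 8.39 to 8.77. Of 3 monocyte genes, 2 were highest in KI3, with *Ccr2* at -3.20 against -7.03 to -5.71, and *Chil3* was lowest. The low *Ccr2* values lay near the floor. The lowest level well above background on the 6 brain arrays was between -6.77 and -5.69. None of 7 neutrophil genes was highest in KI3, and their summed level, 0.75, lay within the 0.33 to 2.34 of the other brains. Of 4 lymphocyte genes, 1 was highest. *Cd5l*, a macrophage gene on the Kupffer cell list, was at 0.95 against -5.39 to -2.25, while *Marco*, the other gene of that list tested in brain, was at -3.55 against -4.11 to -3.24, and *Clec4f* and *Timd4* were well above background in 0 of 6 brains. Of 6 genes of macrophages outside the brain, all 6 were highest in KI3 and 3 at least 1 above the others, among them *Mrc1* at 0.21 against -1.89 to -1.12. KI3 was 2 months old, like WT2, WT3 and KI2, whose brains were hybridized on the same slide, slide 2. The part of other cell types in the difference was not tested.

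**Figure D2:**
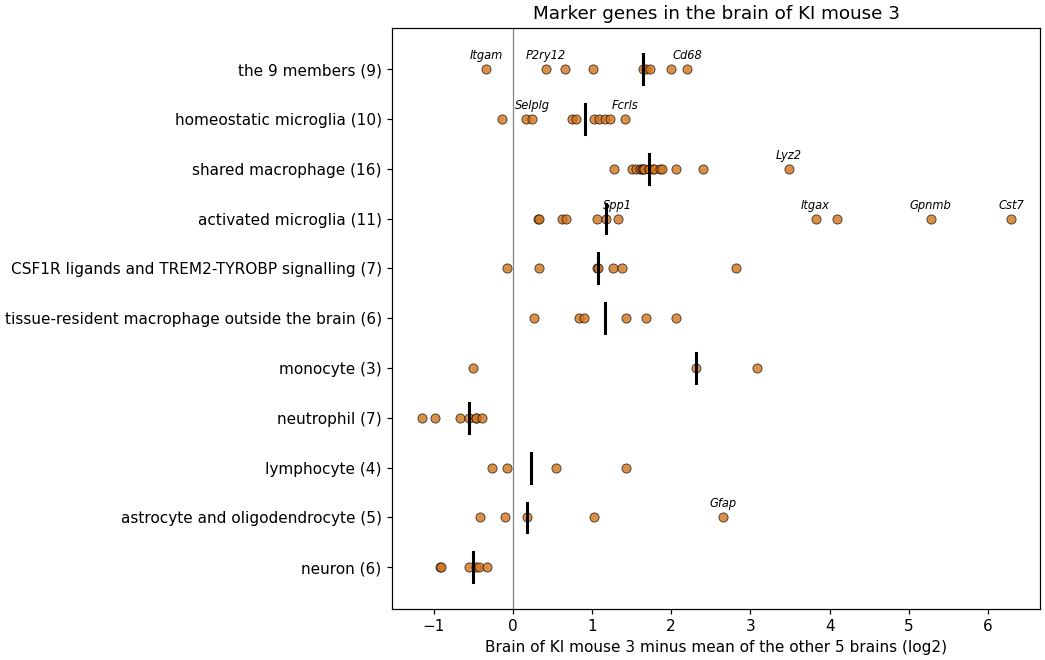
Each point is a gene of the list on the y axis (number measured in parentheses), placed by its log2 level in the brain of KI3 minus the mean of the other 5 brains (x axis), and the black bar is the list's median. Macrophage genes sit above 0 with a median of 1.72, *Cst7* and *Gpnmb* are farthest right, and the neuron and neutrophil genes lie below 0.

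The comparison of genotypes asked whether the 9 genes differed between Rap1 KI/KI and WT mice in each tissue. In brain 8 of 9 genes were higher in KI/KI mice on average, and none passed the limma test with Benjamini-Hochberg adjustment over 37836 probes, of which 0.0% passed. The largest differences were 0.77 (SE 0.62) for *Cd68*, 0.69 (SE 0.45) for *Ctss*, 0.64 (SE 0.56) for *Trem2*, 0.61 (SE 0.48) for *Aif1* and 0.58 (SE 0.53) for *Tyrobp*. *Csf1r* had 0.38 (SE 0.32), *P2ry12* 0.15 (SE 0.26), *Tmem119* 0.084 (SE 0.32) and *Itgam* -0.17 (SE 0.19), and the limma adjusted p was 1 for all 9 genes.

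The median of the 9 differences in brain was 0.58, beside -0.051 over all probes, and it was 0.014 without KI3 (the lowest and highest with any 1 mouse left out were 0.014 and 0.90). Without KI3, *Cd68* had 0.046 (95% confidence interval -0.60 to 0.69), *Trem2* -0.038 (-0.48 to 0.41) and *Tyrobp* 0.0039 (-0.76 to 0.77). For none of the 9 genes were all KI/KI brains above or below all WT brains, beside 7.73% of probes for which they were.

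In the liver, the median difference was 0.11 and the largest was 0.43 (SE 0.37) for *Trem2*. In the heart, the median was 0.088, with 0.46 (SE 0.53) for *P2ry12* and -0.33 (SE 0.23) for *Aif1*. Beside these, the 5 adipocyte genes tested in heart had a median difference of 3.82. All 5 had an unadjusted limma p under 0.05, beside 7.51% of heart probes, and 0 passed the adjusted test. All 5 were also highest in the heart of KI3, beside 18.8% of heart probes, and no difference without KI3 is given for this list. Its summed level was 7.41 in KI1 and 5.17 in KI2, against at most 4.94 in WT mice. The part of the adipocyte genes in the heart values was not tested. In muscle, the median was 0.22, with 0.91 (SE 0.64) for *P2ry12* and 0.82 (SE 0.46) for *Trem2*. The medians over all probes were -0.0089, -0.022 and -0.073. No gene of the 9 passed in these tissues either (0.0% of 35240, 34848 and 32382 probes passed), and the lowest unadjusted limma p of any gene in any tissue was 0.12. On the probe that stands for each gene, the genotypes overlapped for all 9 genes in every tissue. Beside this, 5.84% of probes were without overlap in liver, 14.7% in heart and 6.44% in muscle. The *Itgam* probe A_55_P1977929 did not overlap in liver, at -3.87 to -3.50 in WT mice and -4.05 to -3.91 in KI/KI mice.

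A limma F test of whether the genotype difference varied among the 4 tissues, with the mouse as a random block, passed for none of the 9 genes (lowest unadjusted p = 0.37 for *Trem2*) and for 0.0% of 42463 probes, of which 1397 had an unadjusted p under 0.05. In the 4 genotype comparisons, 992, 750, 2617 and 802 probes had an unadjusted p under 0.05 in brain, liver, heart and muscle, and none was a probe that stands for the 9 genes. With 3 mice per genotype the intervals are wide, and for *Cd68* in brain the 95% interval ran from -0.74 to 2.28.

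**Figure D3:**
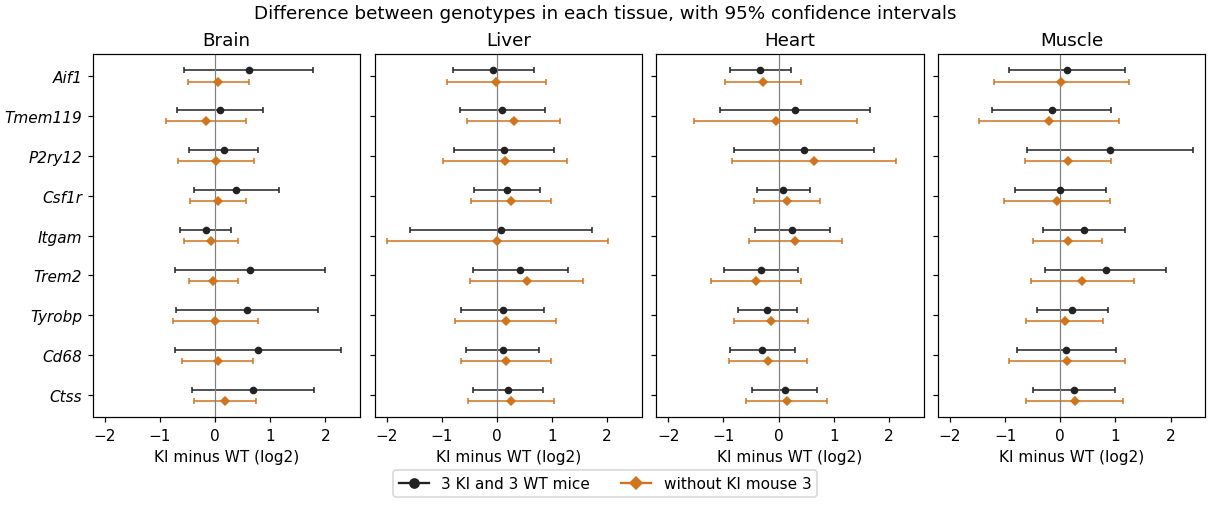
KI/KI minus WT differences (log2, x axis) of the 9 genes (y axis) in each tissue with 95% confidence intervals from limma, for all 6 mice (black circles) and without KI3 (orange diamonds). All intervals include 0, and in brain the differences of *Aif1*, *Trem2*, *Tyrobp*, *Cd68* and *Ctss* move to between -0.038 and 0.17 without KI3.

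In muscle, levels differed between animals more than between genotypes. *P2ry12* was at -4.32, -3.49 and -4.26 in WT1 to WT3, -4.09 and -3.68 in KI1 and KI2 and -1.59 in KI3, 5.19-fold above the mean of the other muscles. *Trem2* was at -1.90, -1.14 and -1.66 in the WT muscles and -1.71, -0.63 and 0.10 in KI1 to KI3. KI3 was the muscle that held neuron transcripts and *Gfap*, and there the homeostatic microglia gene *Cx3cr1* was at 0.74 against -3.84 to -2.12. The part of brain transcripts in these values was not tested. Without KI3 the difference of *P2ry12* was 0.14 (95% confidence interval -0.63 to 0.92) and that of *Trem2* 0.40 (-0.54 to 1.33).

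Of the other genes in muscle, most were lowest in KI1. *Cd68* was at 1.14, 1.63 and 0.93 in WT1 to WT3 and 0.66, 2.05 and 1.31 in KI1 to KI3, *Csf1r* at 3.54, 3.66 and 3.61 and 2.85, 4.24 and 3.73, and *Aif1* at 0.71, 0.88 and 0.70 and -0.15, 1.70 and 1.12. *Ctss* was at 1.20, 1.57 and 1.29 and 1.04, 2.19 and 1.57. KI1 was the lowest muscle for 6 of the 9 genes, and KI2 and KI3 were each the highest for 4, beside 12.5% of muscle probes lowest in KI1 and 17.5% and 16.6% highest in KI2 and KI3. The muscle of KI2 also had the highest summed adipocyte level, 9.87 against 6.52 to 9.56, and that of KI1 the highest summed neutrophil level, 6.54 against -0.31 to 3.68. The part of fat and neutrophils in these values was not tested.

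In liver, KI2 was the highest animal for 7 of the 9 genes, beside 8.07% of probes. *Ctss* was at 3.18, 3.64 and 3.33 in WT1 to WT3 and 3.22, 4.05 and 3.48 in KI1 to KI3, and *Tyrobp* at 2.51, 3.06 and 2.74 and 2.38, 3.48 and 2.77. *Csf1r* was at 4.77, 5.20 and 4.89 and 4.87, 5.56 and 4.98. The Kupffer cell genes *Clec4f*, a lectin receptor, and *Cd5l* were highest in KI2 too, at 4.93 against 3.79 to 4.41 and at 5.96 against 5.17 to 5.79. The *Itgam* probe that followed *Hexim2* ran the other way, with its lowest liver in KI2 at 1.31 against 1.55 to 3.78.

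In heart, no animal was highest for more than 3 of the 9 genes (WT2, which was highest for 6.33% of probes). *Tmem119* ranged widely, with -0.44, 1.12 and 1.63 in WT1 to WT3 and 0.61, 0.83 and 1.75 in KI1 to KI3, and *P2ry12* likewise, with -1.92, -0.96 and -3.02 and -0.94, -1.70 and -1.86. *Tyrobp* was even, at 2.78, 3.16 and 2.76 and 2.95, 2.55 and 2.58. *Csf1r* stayed between 4.85 and 5.16 in all 6 hearts.

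Between tissues, *P2ry12* and *Trem2* were the genes with the highest levels in brain relative to the other tissues. *P2ry12* had a mean of 1.05 ± 0.30 (SD, n = 6) in brain, -1.73 ± 0.76 in heart, -3.01 ± 0.51 in liver and -3.57 ± 1.02 in muscle. It was higher in brain by 2.78 (SE 0.37) over heart, 4.05 (SE 0.37) over liver and 4.62 (SE 0.37) over muscle (limma adjusted p = 2.1e-06, 8.8e-09 and 2.4e-09), while liver and muscle, next to each other in this order, differed by 0.56 (95% confidence interval -0.21 to 1.34, adjusted p = 0.18). *Trem2* had 2.86 ± 0.82 (SD, n = 6) in brain, 0.87 ± 0.36 in heart, -0.66 ± 0.53 in liver and -1.16 ± 0.77 in muscle, and every pair but liver and muscle passed the test. Liver and muscle passed for both genes without KI3, with differences of 0.95 for *P2ry12* (limma adjusted p = 0.015) and 0.76 for *Trem2* (limma adjusted p = 0.029).

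*Tmem119* did not set brain apart from heart. Its mean was 1.20 ± 0.39 (SD, n = 6) in brain, 0.92 ± 0.80 in heart, -0.16 ± 0.62 in muscle and -1.52 ± 0.41 in liver, and brain and heart differed by 0.29 (95% confidence interval -0.36 to 0.93, limma adjusted p = 0.42). Brain was above liver by 2.73 (SE 0.31) and above muscle by 1.36 (SE 0.31), with adjusted p of 1.8e-07 and 0.00069 in limma.

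*Ctss* fell in steps from brain (4.11 ± 0.70, SD, n = 6) through liver (3.48 ± 0.32) and heart (2.74 ± 0.25) to muscle (1.48 ± 0.41), and all 6 pairs passed. The step from liver to brain, 0.63 (limma adjusted p = 0.022), was 0.35 without KI3 (limma adjusted p = 0.1). That step also missed the threshold in WT mice alone, in KI mice alone, without WT1 and without KI1 (limma adjusted p = 0.16, 0.095, 0.071 and 0.051). The step from heart to liver was 0.37 after quantile normalization and 0.53 with z-scores (limma adjusted p = 0.24 and 0.09). In KI mice alone it was 0.79 (limma adjusted p = 0.14). *Cd68* had its highest mean in liver, 2.78 ± 0.33 (SD, n = 6), followed by heart with 2.35 ± 0.29, brain with 1.71 ± 0.93 and muscle with 1.29 ± 0.50. Its difference of brain minus liver was -1.08 (SE 0.33, limma adjusted p = 0.006), and its difference between brain and heart was -0.65 (adjusted p = 0.088 in limma), or -1.08 without KI3 (adjusted p = 0.00099 in limma). Quantile normalization and z-scores left the difference between brain and liver at -0.58 and -0.71, past no threshold (limma adjusted p = 0.15 and 0.073).

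*Tyrobp*, *Csf1r* and *Aif1* were lower in muscle than in each of the other tissues. *Tyrobp* had 2.68 ± 0.76 (SD, n = 6) in brain, 2.82 ± 0.40 in liver, 2.80 ± 0.23 in heart and 1.35 ± 0.33 in muscle. *Csf1r* had 5.03 ± 0.44, 5.05 ± 0.29, 5.00 ± 0.14 and 3.60 ± 0.44, and *Aif1* had 2.35 ± 0.71, 2.30 ± 0.38, 1.93 ± 0.28 and 0.83 ± 0.61 in the same order. For all 3 genes each of the 3 pairs with muscle passed the limma test and no pair among brain, liver and heart did, with intervals for brain minus liver of -0.70 to 0.42, -0.40 to 0.37 and -0.56 to 0.66. These results for *Csf1r* depend on the normalization. After quantile normalization it was higher in brain than in liver by 1.15 (limma adjusted p = 6.3e-05) and than in heart by 0.66 (limma adjusted p = 0.0092), and lower in liver than in heart, with a difference of -0.49 (limma adjusted p = 0.044). With the mean of its probes, brain was above heart by 0.42 (limma adjusted p = 0.044).

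The 3 probes of *Itgam* ordered the tissues differently. The brightest, A_55_P1977934, had 5.76 ± 0.19 (SD, n = 6) in brain, 5.51 ± 0.35 in heart, 4.50 ± 0.46 in muscle and 2.57 ± 1.00 in liver. The probe A_55_P1977929 was highest in muscle, between -1.62 and -1.25, and A_55_P1977926 highest in heart, between -3.96 and -2.47. The brightest is the probe that followed *Hexim2*. The direction of an *Itgam* difference between tissues therefore depends on the probe, and with the mean of its probes the difference of brain minus muscle was -0.24 and that of brain minus heart -0.46 (limma adjusted p = 0.029). The third *Csf1r* probe, A_55_P2025073, was highest in liver, between 0.06 and 1.02, and lay between -1.19 and -0.19 elsewhere.

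**Figure D4:**
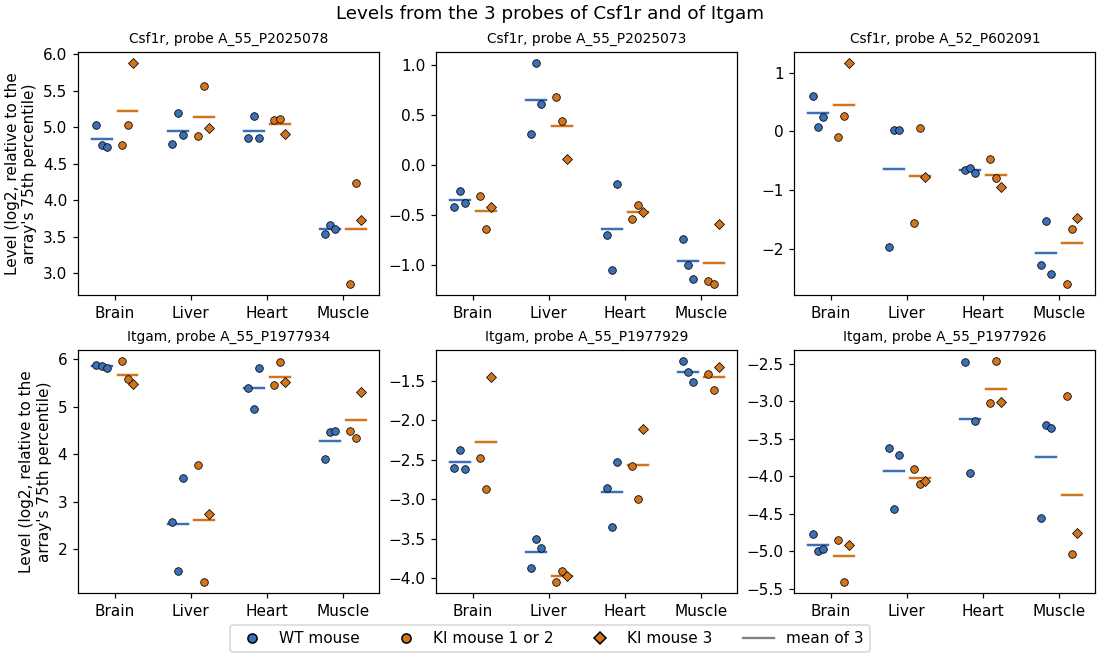
Levels (log2 relative to the array's 75th percentile, y axis) from each of the 3 probes of *Csf1r* (top row) and *Itgam* (bottom row) by tissue (x axis), with mice marked by genotype and KI3 as a diamond. The probes of *Itgam* are highest in brain, muscle and heart in turn, and the diamond is raised in brain on 2 of the 3 *Csf1r* probes and on 1 *Itgam* probe.

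Counted over the 9 genes, heart was above muscle for 9 (21.7% of 42463 probes were higher and 23.2% lower in that comparison), and brain was above muscle for 8 and below for 0 (29.1% and 41.9% of probes). Brain was above liver for 5 and below for 1 (33.8% and 46.0% of probes), and above heart for 3 and below for 0 (28.3% and 40.7%). Liver was above muscle for 5 and below for 2 (35.4% and 36.8%), and above heart for 1 and below for 4 (35.0% and 32.9%). The median difference of the 9 genes was 1.43 for brain against muscle and 1.26 for heart against muscle, beside -0.30 and -0.07 over all probes. These comparisons share tissues. The counts use the *Itgam* probe that followed *Hexim2*. With the mean of its probes, *Itgam* had 0.22 for heart minus muscle (limma adjusted p = 0.34) and -0.24 for brain minus muscle (limma adjusted p = 0.24). In KI mice alone, heart was above muscle for 2 genes, and in WT mice alone for 7. Without KI3, brain was above liver for 4 genes and below heart for 1, and liver was above muscle for 7.

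The counts of list genes that follow are to be read beside the shares of all 42463 probes. Of these, 28.3% were higher and 40.7% lower in brain than in heart. Against liver the shares for brain were 33.8% and 46.0%, and against muscle 29.1% and 41.9%. Liver was higher than heart for 35.0% of probes and higher than muscle for 35.4%. All 5 Kupffer cell genes were higher in liver than in heart, brain and muscle. All 7 genes of macrophages outside the brain were lower in brain than in heart and than in muscle, among them *Lyve1*, a hyaluronan receptor, with a difference of -5.29 (SE 0.23) against heart, and *Folr2*, a folate receptor, with -5.02 (SE 0.38). Against liver, 5 of the 7 were lower in brain and 2 higher, namely *Cbr2*, a carbonyl reductase, by 3.95 (SE 0.39) and *F13a1*, a chain of coagulation factor XIII, by 2.68 (SE 0.29). Of 10 homeostatic microglia genes, 7 were higher and 1 lower in brain than in heart, 6 higher and 2 lower than in liver, and 8 higher and 1 lower than in muscle. *Cx3cr1* was higher in brain than in liver by 5.44 (SE 0.43, limma adjusted p = 1.3e-09), and *Gpr34*, a lysophospholipid receptor, by 6.98 (SE 0.25, limma adjusted p = 1.9e-14), whereas *Sall1*, a transcription factor of microglia that other organs also express, had a difference of -1.07 (SE 0.40, limma adjusted p = 0.02). *Il34* was higher in brain than in each other tissue, by 1.44 to 2.86, while *Csf1* was highest in heart and differed between brain and liver by 0.08 (SE 0.22, limma adjusted p = 0.75).

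Of 16 shared macrophage genes, 0 were higher and 9 lower in brain than in heart, 1 higher and 11 lower than in liver, and 6 higher and 2 lower than in muscle. Over all probes, 28.3% were higher and 40.7% lower in brain than in heart. The shares were 33.8% and 46.0% against liver, and 29.1% and 41.9% against muscle. *Adgre1*, which encodes the macrophage marker F4/80, was lower in brain than in liver with a difference of -2.30 (SE 0.30, limma adjusted p = 1.1e-06), while *C1qa*, a chain of complement C1q, differed between them by -0.40 (SE 0.35, limma adjusted p = 0.29).

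Over the 24 arrays, the genes whose levels were most like the mean of the 9 were *Crb2* (Pearson r = 0.924), *Lair1* (0.921), *Havcr2* (0.921), *Mycbpap* (0.919) and *Cotl1* (0.918), among 18311 genes. For single members the closest gene was *C1qc* for *Cd68* (r = 0.969), *C1qa* for *Tyrobp* (r = 0.962), *Cx3cr1* for *Trem2* (r = 0.96), *Ppp1r9a* for *P2ry12* (r = 0.955), *Cd300c2* for *Csf1r* (r = 0.948), *Ebi3* for *Aif1* (r = 0.94), *Zfp90* for *Tmem119* (r = 0.934) and *Fcgr1* for *Ctss* (r = 0.93). After the mean of its tissue and genotype was taken from each level, *C1qc* (r = 0.899), *C1qa* (0.892), *Tbxas1* (0.891), *Fgd2* (0.89) and *Ccl12* (0.886) were closest to the mean of the 9. Without KI3, *Tbxas1* stayed among the first 5 (r = 0.918). These correlations are descriptions over 24 arrays of 6 mice, which share their tissues and, in the second measure, the brain of KI3.

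Among the 36 pairs of the 9 genes, r within tissue and genotype ran from -0.445 to 0.936 with a median of 0.495, and without KI3 from -0.629 to 0.911 with a median of 0.474. The 7 pairs below 0 without KI3 were those of the *Itgam* probe that followed *Hexim2* with *Tyrobp* (-0.629), *P2ry12* (-0.592), *Ctss* (-0.553), *Csf1r* (-0.483), *Aif1* (-0.4) and *Cd68* (-0.396), and the pair of *P2ry12* and *Trem2* (-0.0572).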

How the data were processed

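RNA from 4 tissues of 6 mice was hybridized to 24 one-colour Agilent arrays. The authors deposited scanner output of Feature Extraction 12.0.3.1, whose processed signal is a background-corrected intensity, and a table of z-scores (a score per spot and array), which was used as an alternative. Control and flagged spots were left out and spots of one probe averaged. Each level is the log2 processed intensity minus the log2 of the array's 75th percentile over probes. Of 55681 probes, 28331 carried 1 gene symbol through their accession.

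The genotype test took the 6 arrays of a tissue (limma 3.58.1, R 4.3.3) and the probes that reached well above background on 3 or more arrays. Tissues were compared over 24 arrays with the mouse as a fixed block, and the interaction used the mouse as a random block, with the consensus correlation (0.035) taken from every 10th probe. Tests were two-sided with Benjamini-Hochberg adjustment over all probes at 0.05. The animal numbers in the labels pair the tissues of a mouse. Over probes, deviations from the group means of the same mouse correlated by -0.169 to 0.183 between tissues (median 0.031). For different mice the correlations ran from -0.265 to 0.265 (median -0.00435). The values of the same mouse lay inside that range, so they do not check the pairing. Each array is 1 mouse and tissue, so p-values of the genotype test measure the spread between mice. Those of the tissue comparison measure the spread within mice that is left after the mouse block. The number of arrays limits the precision. Alternatives were quantile normalization, normexp with an offset of 50, z-scores, other filters, probe means, blocks and leaving out each mouse. The models were tested on simulated data. The 9 genes and all lists were chosen with earlier results of these data known. Genes named were the 9 members, up to 5 bright genes of each list, those most alike by correlation, and others picked after their values were seen. The array-by-array comparison within a tissue was also chosen after the values were seen. Promoters were read from RefSeq (GRCm38.p6). *Csf1r* has no sequence here. One gene of the marker lists is not reported by name here.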

Additional observations from a re-analysis of the deposited data

How the results depend on the processing

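No member passed the genotype test in any tissue, and none the interaction, under any alternative run. The median genotype difference in heart was 0.25 after quantile normalization and ran from -0.27 to 0.053 with 1 mouse left out. With 1 mouse left out, the brain differences of *Tmem119* and *Trem2* ran from -0.17 to 0.32 and from -0.038 to 1.00, and *P2ry12* in heart from -0.062 to 0.96. For brain minus heart, 5 genes were higher after quantile normalization, and 1 was lower in WT mice alone, with probe means and without KI3 (0 to 1 with 1 mouse left out). For brain minus liver, 0 were lower after quantile normalization, with z-scores and in KI mice alone, and for liver minus heart 0 were higher under these 3, with 2 lower in KI mice alone. For heart minus muscle, 2 were higher in KI mice alone. Directions turned for differences that had not passed the test, and for *Itgam* in brain minus muscle, which had passed with 1.26 (limma adjusted p = 0.0015). Of those that turned, *Csf1r* was called after quantile normalization for brain minus liver (limma adjusted p = 6.3e-05) and liver minus heart (limma adjusted p = 0.044). *Itgam* was called with probe means for brain minus heart (limma adjusted p = 0.029). With quantile normalization and z-scores, brain minus liver became 1.15 and 0.46 for *Csf1r* and 0.50 and 0.24 for *Tyrobp*, liver minus heart -0.49 and -0.24 for *Csf1r* and -0.30 and -0.17 for *Tyrobp*, and brain minus heart 0.20 and 0.069 for *Tyrobp*. In WT mice alone, *Aif1* had -0.29 for brain minus liver and -0.052 for brain minus heart, *Csf1r* -0.11 for brain minus heart, and *Tyrobp* -0.13 for liver minus heart. In KI mice alone, *Tyrobp* had 0.28 for brain minus heart and 0.10 for brain minus liver, and *Csf1r* 0.084 for brain minus liver. With probe means, *Csf1r* had 0.045 for brain minus liver, and *Itgam* -0.46 (limma adjusted p = 0.029) and -0.24 for brain minus heart and brain minus muscle. Normexp gave *P2ry12* -0.070 for liver minus muscle. With 1 mouse left out, brain minus heart ran from -0.15 to 0.12 for *Csf1r*, -0.043 to 0.43 for *Tmem119* and -0.45 to 0.11 for *Tyrobp*, brain minus liver from -0.26 to 0.27 for *Aif1*, -0.20 to 0.087 for *Csf1r* and -0.44 to 0.064 for *Tyrobp*, and liver minus heart from -0.03 to 0.10 for *Csf1r* and -0.15 to 0.15 for *Tyrobp*. The cause was not tested. Without the replicate block, brain was above liver for 5 members and below for 1, as with the block, and no other count of called members changed in the paired comparison. Slide and age split the brains in the same way, and with either as a block the median stayed at 0.58. With 3 mice per genotype, differences smaller than the intervals given were not detectable.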
